A study of Mus musculus with 8 samples.

Results

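Spp1, Retnla, Saa3, Arg1, Chi3l3, Chi3l4 and Ear11 are genes of tissue injury and of alternatively activated macrophages. They were followed in the lungs of untreated mice as all probes that carry one of these symbols, which gave 8 probes for 7 of the 21229 genes named among the 41174 probes of the array. The genes were selected on their measured log2 ratios of lung over pool, because Spp1, Retnla, Saa3 and Arg1 lay far below a common reference pool on every array. Their distance from the pool is therefore described here without a test, while the comparison of the genotypes did not enter the selection. Total RNA of the whole lung of 4 wild-type and 4 Scgb3a2-transgenic C57BL/6 males, aged 8 to 10 weeks by the sample labels, was labeled with Cy5. Each was hybridized against Cy3-labeled RNA of pooled whole mouse lung on a two-color Agilent array. The transgene placed mouse Scgb3a2 under the human SP-C promoter, which is active in alveolar type II cells. By the methods it was injected into C57BL/6NCr eggs, and the mice came from a line of a single founder, so effects of the transgene and of its insertion site cannot be told apart.

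The 8 arrays sat on 4 slides as pairs of both genotypes (wild-type replicate 1 with transgenic replicate 1, 2 with 2, 3 with 4, and 4 with 3), and the slides were scanned on 2 days. No dyes were swapped, so for any single probe a difference in dye response and a difference between lung and pool cannot be told apart. The median signal in the lung channel was 204 to 277.5 over the 8 arrays, and no spot was saturated. All 8 type II cell genes and all 6 club cell genes looked at were well above background on all arrays. So were all 6 T cell genes and all 5 B cell genes on the array. On each array 32257 to 34709 of the 41174 probes were well above background in the lung channel, so these counts cannot test the lung label. The Scgb3a2 probe itself ranged in log2 lung over pool from -0.56 to 0.58 in wild-type and from 0.47 to 1.26 in transgenic lungs. The groups thus overlapped, and the difference of 0.88 (SE 0.24, n = 4 per genotype) had an adjusted p of 1 with limma (0.00329 unadjusted).

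Macrophages exposed to interleukin 4 or interleukin 13 take on an alternatively activated state, in which the transcription factor STAT6, together with C/EBP factors, turns on Arg1, Retnla and Chi3l3. Arg1 encodes arginase 1, which cleaves arginine to ornithine and urea. Retnla encodes the secreted protein RELM-alpha (also called FIZZ1), and Chi3l3 (Ym1, now Chil3) and Chi3l4 (Ym2, now Chil4) encode chitinase-like lectins that bind sugars without cutting chitin. Ear11 (now Rnase2a) belongs to the eosinophil-associated ribonucleases, which macrophages of the lung also make under type 2 cytokines. Spp1 encodes osteopontin, a secreted phosphoprotein that binds CD44 and integrins and marks macrophages in injured and scarring lung. Saa3 encodes serum amyloid A3, an acute phase protein that is made locally in inflamed epithelium and by macrophages. In whole lung RNA, fewer cells of a type and less RNA per cell cannot be told apart.

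The stretches directly upstream of the starts in RefSeq's promoter table are shown for Retnla, Saa3, Chi3l3 and Chi3l4, in which letter patterns known for these factors can be seen in place, and for which lung over pool differed widely. They come from the mouse build GRCm38.p6, and the table held 6 of the 7 genes (not Arg1), and each covers the 250 bases before the start, written 5′ to 3′ on the gene's strand. They lie at chr16:48842359-48842608 (Retnla, plus strand), chr7:46715677-46715926 (Saa3, minus strand), chr3:106167565-106167814 (Chi3l3, minus strand) and chr3:106219480-106219729 (Chi3l4, minus strand). That of Saa3 lies within the RefSeq gene span, chr7:46711998-46719615, and the other 3 adjoin theirs. Capitals mark matches, on either strand, to the STAT pattern with a 3-base spacer (TTCNNNGAA), to the same pattern with a 4-base spacer, and to the C/EBP pattern TTGCNNAA.
Retnla: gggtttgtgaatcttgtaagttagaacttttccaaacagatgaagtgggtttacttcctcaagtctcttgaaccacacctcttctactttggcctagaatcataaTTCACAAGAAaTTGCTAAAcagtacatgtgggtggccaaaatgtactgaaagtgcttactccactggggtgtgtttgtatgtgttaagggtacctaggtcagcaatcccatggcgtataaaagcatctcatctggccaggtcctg
Saa3: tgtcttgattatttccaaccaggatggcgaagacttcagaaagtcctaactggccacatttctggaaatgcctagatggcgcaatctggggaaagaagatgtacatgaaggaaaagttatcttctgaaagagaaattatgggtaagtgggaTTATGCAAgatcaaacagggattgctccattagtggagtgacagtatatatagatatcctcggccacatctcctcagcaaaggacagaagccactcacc
Chi3l3: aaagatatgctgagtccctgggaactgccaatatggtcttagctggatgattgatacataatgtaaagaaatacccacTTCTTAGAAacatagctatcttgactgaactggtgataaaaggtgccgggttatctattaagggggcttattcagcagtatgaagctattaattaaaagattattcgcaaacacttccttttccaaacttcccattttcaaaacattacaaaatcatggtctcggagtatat
Chi3l4: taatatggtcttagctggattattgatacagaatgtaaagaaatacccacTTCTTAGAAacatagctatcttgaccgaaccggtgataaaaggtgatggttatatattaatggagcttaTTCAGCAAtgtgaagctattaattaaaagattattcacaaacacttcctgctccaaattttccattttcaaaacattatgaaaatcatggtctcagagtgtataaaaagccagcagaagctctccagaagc

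The Retnla stretch held TTCACAAGAA (4-base spacer) from position -145 and, next to it, TTGCTAAA from position -134, counted from the annotated start. Saa3 held TTATGCAA, the C/EBP pattern read on the other strand, from -99. Chi3l3 held TTCTTAGAA from -172, and Chi3l4 held the same 9 letters from -200 in a stretch that matched that of Chi3l3 in 67.6% of 222 bases when shifted by 28 bases without gaps. Chi3l4 also held TTCAGCAA, the C/EBP pattern on the other strand, from -131. Of the 6 genes, 5 had a C/EBP match and 3 a STAT match. The matches not printed in place are TTGCAGAA in the second of the 2 Spp1 windows (from -156) and TTGCATAA in that of Ear11 (from -217), and the printed genes were picked for their matches. Among all 32851 RefSeq windows of 300 bases (250 before and 50 after the start), 6.95% held the STAT pattern with a 4-base spacer, 8.3% held TTCNNNGAA and 10.8% held TTGCNNAA. The letters of the AP-1 pattern TGANTCA (7.81% of all windows) and of the NF-kB pattern (1.2%) were found in none of the windows of the 6 genes. A match is a run of letters and no binding was measured.

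All values below are log2 ratios of the lung channel over the pool channel after background correction and loess normalization, so that -1 stands for a signal 2-fold below the pool. Saa3 had a mean of -3.53 ± 1.0 (SD, n = 8), which is 11.5-fold below the pool and the lowest of the 7 genes with this background correction. With the processed signals, the deposited matrix or an offset of 0, Arg1 was lower than Saa3 (-4.41 against -3.70, -4.41 against -3.70, and -3.72 against -3.69). With the correction fitted on all spots, the first Retnla probe was lower than Saa3 (-3.23 against -3.05). Retnla followed at -3.21 ± 0.50 with its first probe and -3.09 ± 0.62 with its second (SD, n = 8). Spp1 had -2.60 ± 0.54 and Arg1 -2.51 ± 0.46 (SD, n = 8). These 4 genes held ranks 2, 3, 4, 12 and 14 from the lowest among the 32645 probes tested, of which the middle lay at 0.0089 and the lowest 1% below -1.09. The rank of Arg1 has no fixed value, since its mean ran from -1.68 to -4.41 with the background correction and its lung signal was not well above background on 2 arrays. Chi3l4 was intermediate at -1.06 ± 0.72 (SD, n = 5), and Chi3l3 with -0.40 ± 0.38 (SD, n = 8) and Ear11 with -0.29 ± 0.31 (SD, n = 7) stayed within 2-fold of the pool on every array with a value. Genes grouped by their role in alternative activation thus ranged from rank 3 (Retnla) to rank 5302 (Ear11).

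**Figure D1:**
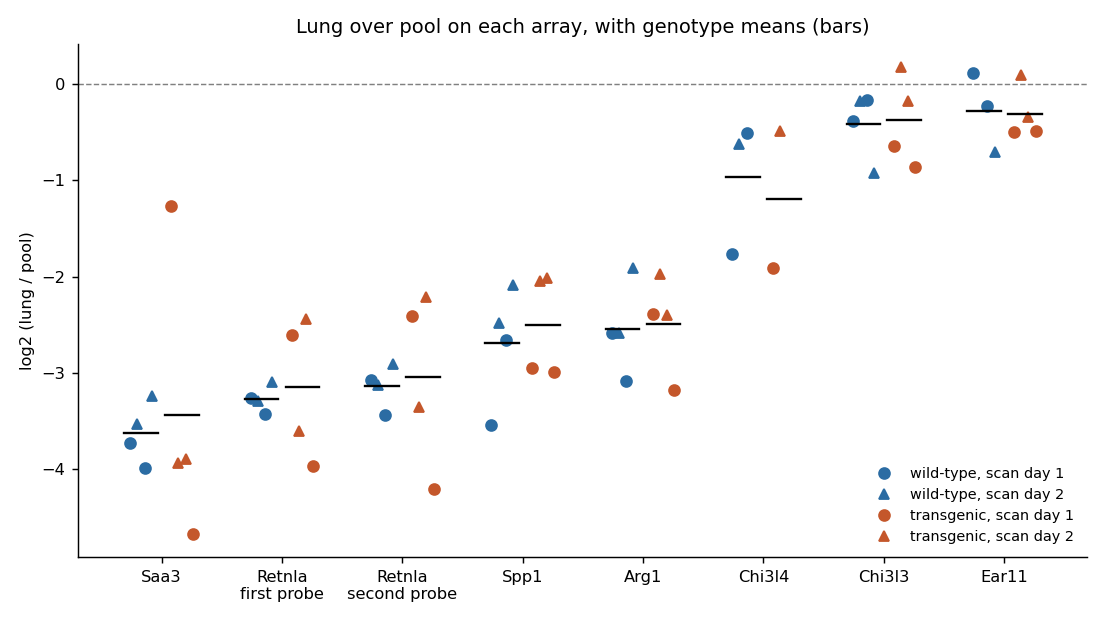
Log2 lung over pool of the 8 probes (vertical axis) on each array, by probe from the lowest mean to the highest. Blue points are wild-type and orange points transgenic arrays, circles were scanned on day 1 and triangles on day 2, and bars are genotype means. Saa3, Retnla, Spp1 and Arg1 lie below -1 on every array, Chi3l3 and Ear11 near 0, and the genotypes overlap for all 8 probes.

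Counted over arrays, 5 of the 8 probes (Spp1, both Retnla probes, Saa3 and Arg1) were more than 2-fold below the pool on each of the 8 arrays, against 0.389% of all probes tested, and 3 of them (Spp1 and both Retnla probes) more than 4-fold, against 0.0521%. The selection used this distance, so nothing is read from these shares. Values below the pool on every array with a value, at any size, were held by these 5 probes and by Chi3l4, against 20.4% of all probes. According to the methods, every sample gave an equal amount of RNA to the pool. With equal response of the dyes, an equal mix of these 8 lungs would give a linear ratio that averages about 1 over the arrays. No dyes were swapped, so for a single probe dye response and pool content cannot be told apart. The loess normalization centers the ratios of each array, so the median of this average over the probes tested, 1.01, says nothing about the pool. Among the genes selected for lying far below the pool, the average was 0.114 for the first Retnla probe, 0.115 for Saa3, 0.175 for Spp1 and 0.183 for Arg1. It was 0.781 for Chi3l3 and 0.832 for Ear11. The log2 mean of Arg1 also changed with the background correction, from -1.68 to -4.41. The RNA content of the pool was not measured apart from the arrays.

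The first Retnla probe gave a raw median signal of 26803 to 45206 in the pool channel and of 2070 to 4274 in the lung channel. In log2 lung over pool the wild-type replicates 1 to 4 had -3.26, -3.29, -3.43 and -3.09, and the transgenic replicates -2.61, -3.60, -2.44 and -3.96. The transgenic arrays lay on both sides of the narrow wild-type range, with an SD of 0.74 against 0.14. The second probe, listed for the same transcript, gave -3.07, -3.12, -3.44 and -2.91 in wild-type and -2.41, -3.35, -2.21 and -4.20 in transgenic lungs. Both probes put transgenic replicate 3 highest and transgenic replicate 4 lowest of all arrays, and they differed on no array by more than 0.25.

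Spp1 is spotted 10 times on each array, and the mean over its unflagged spots was used. Its raw signal was 1753 to 5313 in the lung channel and 20011 to 38657 in the pool channel. In log2 lung over pool the wild-type replicates 1 to 4 had -3.54, -2.48, -2.66 and -2.09, and the transgenic replicates -2.95, -2.05, -2.01 and -2.99. Wild-type replicate 1 was the lowest array, 11.6-fold below the pool, and transgenic replicate 3 the highest, 4.02-fold below. The 4 arrays of the first scan day were all lower than the 4 of the second, which is taken up below.

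Saa3 had the widest spread of the 7 genes. The wild-type replicates 1 to 4 had -3.73, -3.53, -3.98 and -3.24, and the transgenic replicates -1.27, -3.93, -3.89 and -4.67. Transgenic replicate 1 was thus 2.4-fold below the pool, while the other 7 arrays were between 9.44-fold and 25.4-fold below. This was seen in the lung channel, where the raw signal of transgenic replicate 1 was 2094 against 304 to 519 on the other arrays, and not in the pool channel, where it was 7412 within a range of 5244 to 7474.

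The lung signal of Arg1 was near background. Its raw value was 72 to 97 over a local background of 54 to 58, and it was well above background in the lung channel on 6 of 8 arrays (not on wild-type replicate 1 and transgenic replicate 2), while its pool signal was 291 to 877 and well above background on all 8. The wild-type replicates 1 to 4 had -2.58, -2.58, -3.08 and -1.91, and the transgenic replicates -2.39, -1.97, -2.40 and -3.18. The size of the ratio changed with the background correction. Its mean was -3.72 with an offset of 0 in place of 50 and -4.41 with Agilent's processed signals, and -1.68 with the correction fitted on all spots, and it stayed below the pool in all of these.

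Chi3l3 was bright in both channels, with a raw signal of 7094 to 19354 in the lung and of 13141 to 25473 in the pool. The wild-type replicates 1 to 4 had -0.39, -0.18, -0.17 and -0.93, and the transgenic replicates -0.65, 0.17, -0.18 and -0.86, so 7 of 8 arrays were below the pool. Ear11 had 0.11, -0.23 and -0.71 in wild-type replicates 1, 3 and 4 (replicate 2 was flagged and had no value), and -0.50, 0.093, -0.34 and -0.49 in the transgenic replicates. Chi3l4 was flagged on wild-type replicate 4 and on transgenic replicates 3 and 4. It had -1.77, -0.62 and -0.51 in wild-type replicates 1, 2 and 3, and -1.91 and -0.49 in transgenic replicates 1 and 2. Of these 5 values, those of both replicates 1, which shared a slide, were 3.4-fold and 3.77-fold below the pool, and the other 3 were less than 2-fold below. With flagged spots kept, the arrays left out here had -1.75, -0.97 and -1.71. Chi3l3 and Chi3l4, and Ear11 and the other eosinophil-associated ribonucleases, are close copies of each other, so that a probe of one may also take up RNA of another, and no probe sequence was used here to look into this.

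**Figure D2:**
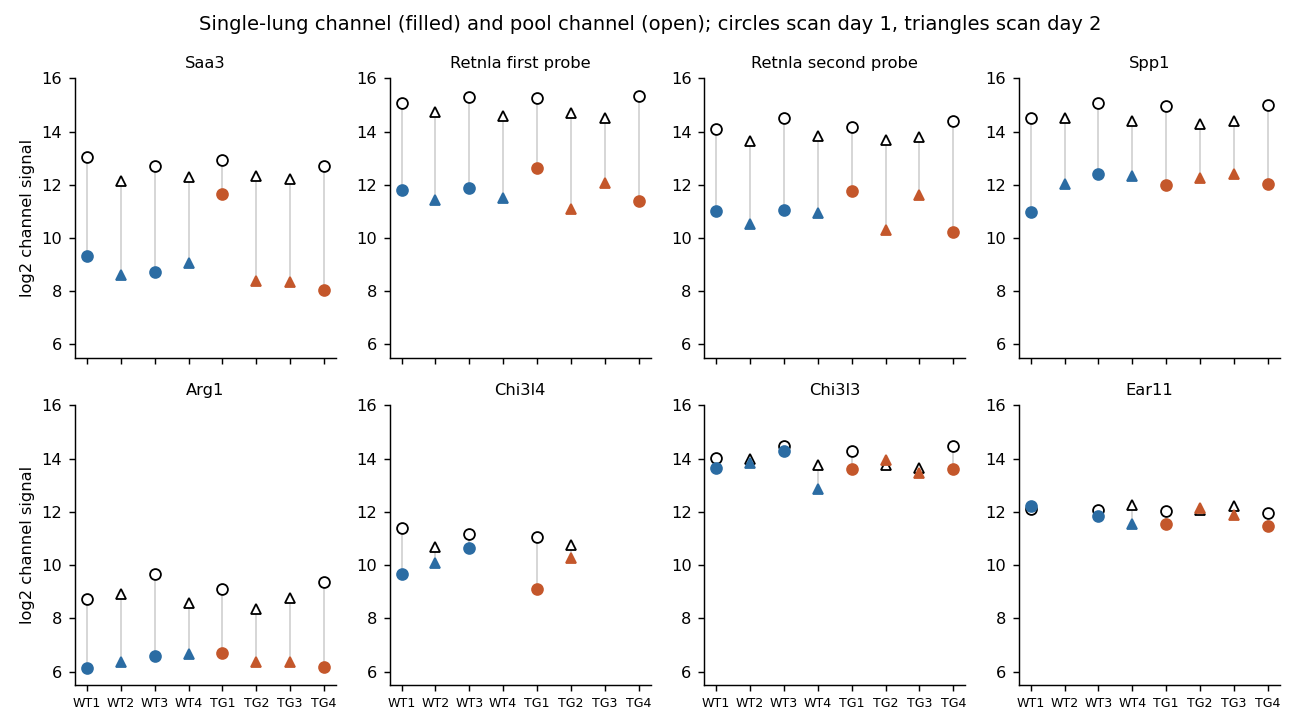
Normalized log2 signal of the lung channel (filled, blue wild-type, orange transgenic) and of the pool channel (open) on each array, 1 panel per probe, with circles for scan day 1 and triangles for day 2. The gray line between them is the log2 ratio. It is long for Saa3, Retnla, Spp1 and Arg1, shrinks for Saa3 on transgenic replicate 1, and is short for Chi3l3 and Ear11, and arrays on which a probe was flagged are left empty.

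All 8 probes varied more between arrays than most probes. The SD of their log2 ratio over the arrays was larger than that of 90.7% (Ear11) to 99.8% (Saa3) of the probes tested, whose median SD was 0.18. For Saa3 the lung channel alone had an SD of 1.14 and the pool channel 0.34. The SDs were 0.49 and 0.35 for the first Retnla probe, 0.46 and 0.32 for Spp1, and 0.41 and 0.31 for Chi3l3, against medians over all probes of 0.22 and 0.16. Arg1 was the exception, with 0.21 in the lung channel, whose signal was near background, and 0.43 in the pool channel.

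The study asked which genes differ between untreated wild-type and Scgb3a2-transgenic lungs. None of the 7 genes differed between the genotypes beyond the spread between mice. Chi3l4 had an estimate of -0.24 (transgenic minus wild-type, SE 0.46, 95% interval -1.30 to 0.83, 3 wild-type and 2 transgenic values). Spp1 had 0.19 (SE 0.31, interval -0.49 to 0.87), Saa3 0.18 (SE 0.56, interval -1.05 to 1.42), and Retnla 0.12 (SE 0.29, interval -0.52 to 0.75) and 0.089 (SE 0.36) with its 2 probes. Arg1 had 0.049 (SE 0.27, interval -0.54 to 0.64), Chi3l3 0.04 (SE 0.23, interval -0.46 to 0.54) and Ear11 -0.034 (SE 0.20, interval -0.49 to 0.42). With the slide as a block, which uses only slides with both values, Chi3l4 had -0.0084 and Ear11 -0.17, while the probes with values on all arrays kept their estimates. The intervals reach in both directions, so they set bounds and do not show equal levels.

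With limma the unadjusted p was 0.546 to 0.873 over the 8 probes and the adjusted p was 1 for each, and in the exact two-sided permutation test of single probes p was 0.6 to 0.943. That test cannot go below 0.0286 with 4 against 4 mice, or below 0.1 for Chi3l4. Over all 32645 probes tested, limma called 0 (0%) at an adjusted p under 0.05, 682 (2.09%) had an unadjusted p under 0.05, and the genotypes did not overlap for 1.98%. Among the 8 probes 0 reached any of these. The methods describe RNA isolated from single mice, and having only 4 arrays per genotype limits how precise these values are.

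Without transgenic replicate 1, Saa3 turned from 0.18 to -0.54, with an adjusted p of 0.999 in limma (0.0284 unadjusted), so that this single lung set the direction of the Saa3 estimate. The SD of Saa3 was 1.49 in transgenic and 0.31 in wild-type lungs. For 5 of the 8 probes the sign differed between the scan days. Chi3l3 had a difference of -0.47 on day 1 and of 0.55 on day 2, and Ear11 had -0.44 and 0.59, each from 2 arrays or fewer per genotype. Saa3 had 0.89 on day 1, which includes transgenic replicate 1, and -0.52 on day 2. Chi3l4 had -0.78 and 0.13, and the second Retnla probe -0.051 and 0.23. Spp1 had 0.13 and 0.26, Arg1 0.039 and 0.058, and the first Retnla probe 0.067 and 0.17. No test was made within a day.

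**Figure D3:**
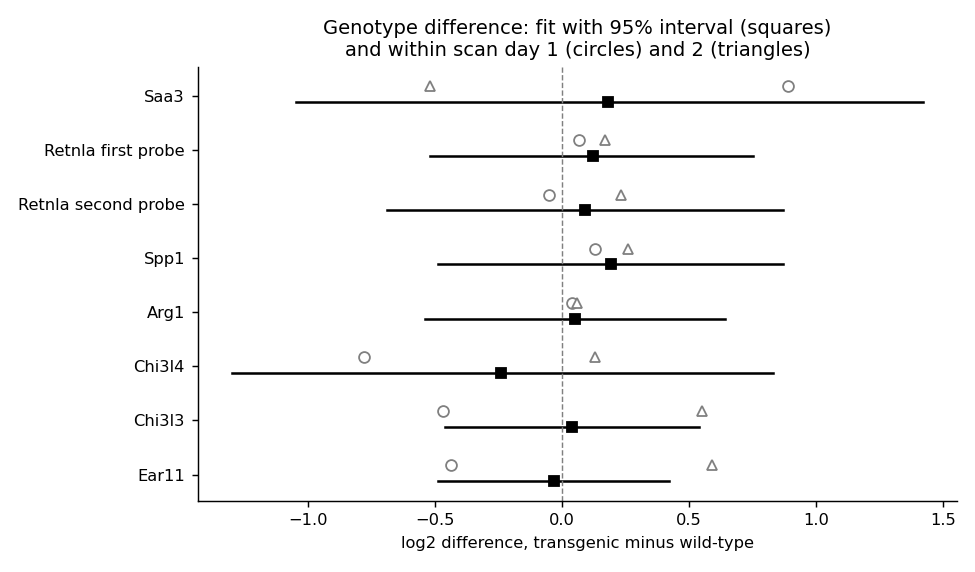
Difference in log2 lung over pool, transgenic minus wild-type, for the 8 probes. Squares are the limma estimates from all arrays with a value and their lines the 95% intervals, open circles and triangles the differences within scan day 1 and 2. Every interval spans 0, and for Saa3, the second Retnla probe, Chi3l4, Chi3l3 and Ear11 the 2 days lie on opposite sides of 0.

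The scan day, which each slide shares between its 2 arrays, was compared after the values had been seen. The fit takes the arrays as independent although slide mates share the day, so its SEs and p-values may be too small. With few slides per day, effects of slide and day cannot be told apart. Spp1 averaged -3.03 on the 4 arrays of day 1 and -2.16 on those of day 2, a difference of 0.87 (SE 0.17) with an adjusted p of 0.268 in limma (0.00051 unadjusted). It was the single one of the 8 probes whose days did not overlap, against 7.79% of all probes with values enough. Arg1 differed by 0.59 (SE 0.21, unadjusted p 0.0182, adjusted p 0.397) and Chi3l4 by 0.90 (SE 0.38, adjusted p 0.472), and limma called 0.0123% of all probes at an adjusted p under 0.05.

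The channels showed more than the ratio. The pool is labeled as the same material on all arrays, yet its normalized signal was higher on day 1 than on day 2 without overlap for 6 of the 8 probes (Spp1, both Retnla probes, Saa3, Chi3l3 and Chi3l4), against 20.7% of all probes in either direction. In log2 signal the first Retnla probe gave 15.08 to 15.34 in the pool channel on day 1 and 14.50 to 14.73 on day 2. Saa3 gave 12.70 to 13.05 and 12.15 to 12.32, and Spp1 14.53 to 15.07 and 14.29 to 14.50. These are values after scaling between arrays, and the raw pool signals of these 3 probes overlapped between the days. For the first Retnla probe the raw pool signal was 26803 on wild-type replicate 1 (day 1) and 32211 on transgenic replicate 3 (day 2). In the lung channel 0 of the 8 probes separated the days, against 17.7% of all probes. For Spp1 the day means were 11.86 and 12.24 in the lung channel and 14.89 and 14.40 in the pool channel, so both moved in the direction that widens the ratio on day 1. The part of labeling, washing, scanning or scaling in this was not tested.

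The lung with high Saa3 also differed in markers of other cells. The mean log2 lung over pool of 11 neutrophil genes was 0.61 in transgenic replicate 1 and 0.20 in wild-type replicate 4, and -0.58 to -1.55 on the other 6 arrays, and 7 of the 11 genes were highest in transgenic replicate 1. S100a8, a subunit of calprotectin, an abundant protein of the neutrophil cytosol, was at 0.69 there, at -0.32 in wild-type replicate 4, and between -3.61 and -1.74 elsewhere. Its partner S100a9 reached 1.54 in transgenic replicate 1, and Retnlg, the resistin-like gene of neutrophils, 0.71. All 11 genes were well above background on all arrays. Wild-type replicate 4, the second highest in these genes, was also second highest in Saa3 with -3.24, close to wild-type replicate 2 with -3.53. The mean of 8 goblet cell genes was 0.88 in transgenic replicate 1 as well, against -0.77 to 0.26 on the others. That lung also had the highest means of ciliated cell genes (0.80, others 0.11 to 0.44), B cell genes (0.49) and T cell genes (0.30). The same held for fibroblast genes (0.10, others -0.22 to -0.011) and interstitial macrophage genes (-0.82, others -1.27 to -0.85). Its mean of type I cell genes was the lowest (-0.57, others 0.0017 to 0.34). The part of these cells in the Saa3 value was not tested.

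**Figure D4:**
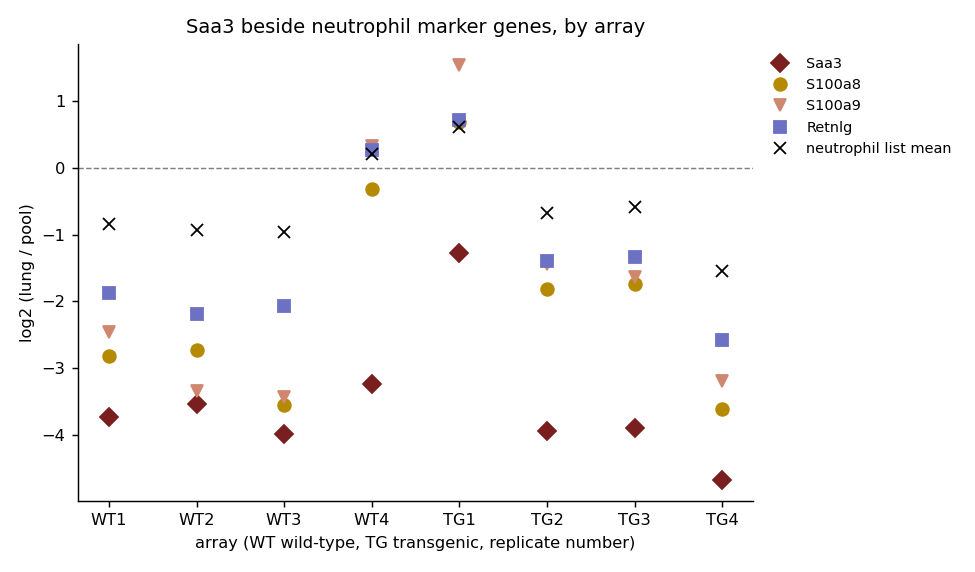
Log2 lung over pool (vertical axis) of Saa3, of S100a8, S100a9 and Retnlg, and of the mean of 11 neutrophil genes on each array (horizontal axis, wild-type then transgenic replicates). Transgenic replicate 1 is the highest array in all 5, with Saa3 at -1.27 and the neutrophil mean at 0.61, while wild-type replicate 4 is high in the neutrophil genes and has Saa3 at -3.24.

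The genes did not move together from lung to lung to an extent that passed correction. Over the 15 pairs among Spp1, Retnla (mean of its 2 probes), Saa3, Arg1, Chi3l3 and Ear11 (Chi3l4 had too few arrays), the closest pair was Chi3l3 and Ear11 with Pearson r = 0.79 (exact permutation p = 0.0381, adjusted 0.571) and Spearman rho = 0.75 (exact permutation p = 0.0663, adjusted 0.497, n = 7). It was 0.84 after the mean of each scan day was subtracted, but 0.50 without the 2 arrays farthest from the median of Chi3l3. Retnla and Saa3 had r = 0.65 (exact permutation p = 0.0866, adjusted 0.649) and rho = 0.71 (exact permutation p = 0.0576, adjusted 0.497, n = 8), with 0.94 within day 1 and -0.11 within day 2. Spp1 and Arg1 had r = 0.56 (exact permutation p = 0.152, adjusted 0.76) and rho = 0.52 (exact permutation p = 0.197, adjusted 0.649, n = 8), which became -0.10 once the day means were subtracted. Retnla, Arg1 and Chi3l3 share the STAT6 program in the background above. They had r = 0.49 (Retnla and Arg1), 0.073 (Retnla and Chi3l3) and 0.12 (Arg1 and Chi3l3), none with an adjusted exact permutation p under 0.813. The Arg1 signal varied less in the lung channel (SD 0.21), where it was near background, than in the pool channel (SD 0.43). Pairs with Arg1 therefore cannot be read as differences between lungs.

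The genes most like each of the 4 lowest in their pattern over the 8 arrays were listed as a description, by Pearson r over 29494 probes. For Spp1 they were Apex1 (0.972), Rhod (0.965) and Tnc (0.965). This probe of Tnc, the matrix protein tenascin C, lay at -2.76, also far below the pool, while the brighter Tnc probe lay at -1.46. For Saa3 they were Amdhd2 (0.983), Pglyrp1 (0.977) and Dnahc12 (0.971). Pglyrp1, a peptidoglycan-binding protein of neutrophil granules, ranged from -0.77 to 1.95. For Retnla they were 1500010J02Rik (0.944), Mtap1a (0.941) and Csrp2 (0.938), and for Arg1 1700020N18Rik (0.986), Pqlc1 (0.982) and Inf2 (0.975), none of them below -1 on any array. These are the highest of many coefficients over 8 arrays, and the points share slides and scan days. For Arg1 the pool channel varied more (SD 0.43) than the lung channel (SD 0.21).

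The families of the 7 genes were listed next. Of 27 family members, 24 were on the array and 19 were tested, with a median of -0.27 against 0.0089 over all probes. Of these, 9 were below the pool on every array, against 20.4% of all probes, and 0 more than 2-fold on every array. Retnlg had -1.31 ± 1.18, Ear10 -1.15 ± 0.46 and Ear6 -0.99 ± 0.31 (SD, n = 8), and the highest were the pancreatic-type ribonuclease Rnase1 (0.71) and the angiogenin gene Ang (0.29). For Ear11, at -0.29, relatives were farther below the pool, among them Ear3 (-0.85) and Ear1 (-0.83) beside Ear10 and Ear6, and so was Chit1 (-0.68) compared with Chi3l3. Saa1 and Saa2, the acute phase genes of the liver, lay at -0.75 and -0.59, closer to the pool than Saa3. Chi3l1, a chitinase-like relative, was at 0.094 with a genotype difference of -0.34 (unadjusted p 0.0485, adjusted p 1 in limma).

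The enzymes around arginase, the receptors of osteopontin and the type 2 cytokine genes were listed as the pathways of the 7 genes. Of 19 genes of arginine and polyamine metabolism tested, 9 were below the pool on all arrays and 0 more than 2-fold, with a median of -0.22. Over all probes tested the shares were 20.4% and 0.389%. Arg2, the mitochondrial arginase, was the lowest at -0.69 ± 0.47 and lower in transgenic lungs by -0.55 (SE 0.22, unadjusted p 0.0313, adjusted p 1 in limma), followed by spermidine synthase Srm (-0.64). The highest was Nos1, the neuronal nitric oxide synthase, at 1.23 ± 0.17 (SD, n = 8). Of 8 osteopontin receptor genes tested, 3 were below the pool on all arrays, with a median of -0.071. The integrin subunit Itga5 had -0.85 ± 0.15 (SD, n = 8), and Cd44, with values on 2 arrays, -0.84. Of 17 genes of the type 2 cytokine axis tested, 8 were below on all arrays, with a median of -0.17. The receptor genes Il4ra and Il13ra1 had -0.78 and -0.64, Stat6 had -0.17, and the cytokine genes Il4 and Il13 had -0.012 and -0.17, while Il25 lay at 0.97.

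Some other genes of alternative activation and injury also lay far below the pool. Of 29 alternative activation genes tested, 14 were below the pool on all arrays and 4 more than 2-fold on all arrays (0.389% of all probes were), with a median of -0.35. The lowest were Trem2, a lipid-sensing receptor of macrophages, at -2.23 ± 0.23, the chemokine Ccl8 at -2.02 ± 0.79 and the chemokine Ccl17 at -2.01 ± 0.35 (SD, n = 8). The highest were Ccl24 (0.62) and Il10 (0.29). Of 31 acute phase and injury genes, 17 were below on all arrays and 5 more than 2-fold, with a median of -0.75. Timp1, an inhibitor of matrix metalloproteinases, was lowest at -2.92 ± 0.24, and another of its probes at -3.77 was the single probe below Saa3 among those tested. The antiprotease Serpina3n had -2.36 ± 0.28 and S100a8 -1.99 ± 1.53 (SD, n = 8), and Cxcl1 (0.61) and Hp (0.48) were highest.

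Of 16 fibrosis and matrix genes tested, 12 were below on all arrays (20.4% of all probes were) and 5 more than 2-fold (0.389%), with a median of -0.80. Macrophage elastase Mmp12 had -2.96 ± 0.22 (SD, n = 8), thrombospondin 1 Thbs1 -2.92 on the 1 array with a value, and fibronectin Fn1 -2.59 ± 0.28 (SD, n = 3), while Tgfb1 lay at 0.042 and Sparc at -0.055. In the 7 lists together limma called 0 genes between the genotypes at an adjusted p under 0.05. At an unadjusted p under 0.05 there were 0 to 3 genes per list (2.09% of all probes). In limma they were Col3a1 (0.36, p 0.0177), the dimethylarginine hydrolases Ddah2 (0.34, p 0.0344) and Ddah1 (0.58, p 0.0422), Il13ra1 (-0.26, p 0.0413) and Mt1 (-0.43, p 0.0428). Arg2 and Chi3l1, given above, were the others.

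**Figure D5:**
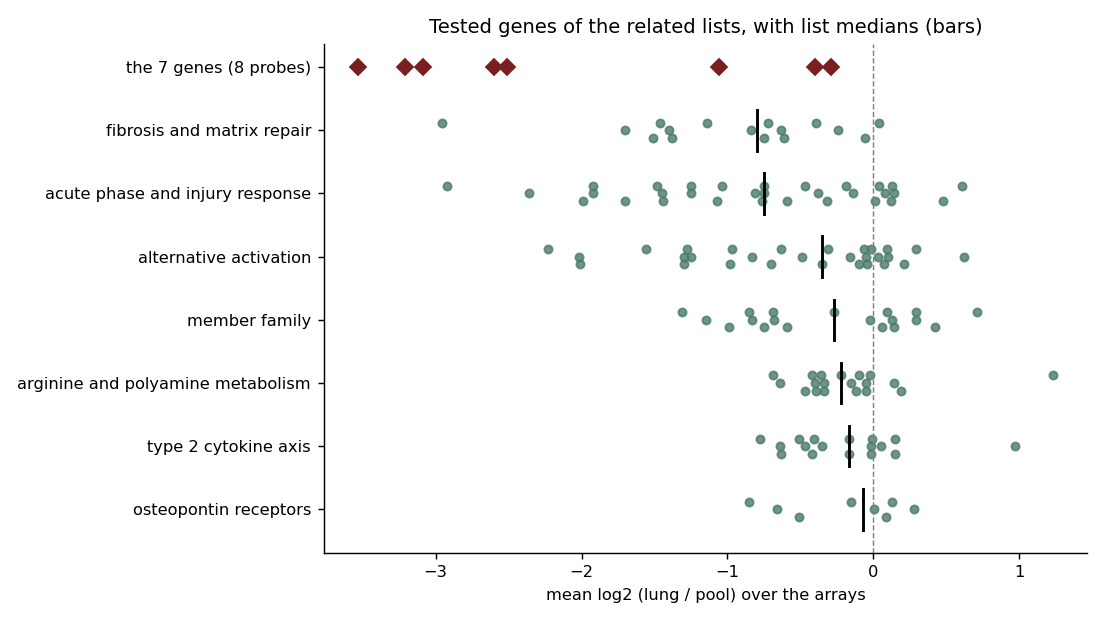
Mean log2 lung over pool (horizontal axis) of the 8 probes (diamonds) and of the tested genes of 7 related lists (points, 1 probe per gene), with the list medians as bars. The medians run from -0.80 for fibrosis and matrix repair to -0.071 for osteopontin receptors, and Saa3 and Retnla lie to the left of every listed gene.

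Markers of macrophages were compared beside these genes. The mean of 11 interstitial macrophage genes was -0.82 to -1.27 over the arrays, and over the genes from -2.09 (the complement gene C1qb) to 0.038 (Tmem119). The mean of 11 alveolar macrophage genes was -0.57 to 0.02, and over the genes from -2.04 (Cd68) to 0.76 (Cidec). The genotype ranges of both lists overlapped. For the interstitial list they were -1.10 to -0.93 in wild-type and -1.27 to -0.82 in transgenic lungs. The mean of 4 eosinophil genes (Prg2, Siglec5, Ccr3 and Alox15) was 0.067 to 0.29, and these 4 were well above background on all 8 arrays. Of the other eosinophil genes on the array, Epx was well above background on 1 array and Il5ra, a defining receptor of eosinophils, on 0. The part of these cells in the values of the 7 genes was not tested.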

How the data were processed

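Lung RNA of 8 mice, grouped by genotype as the labels give it, was measured on 8 two-color arrays, with 1 mouse in Cy5 and the pool in Cy3 on each. The deposited files hold per-spot intensity values (raw median signals, local backgrounds and processed signals) of Agilent Feature Extraction, version 10.10.1.1 per the file headers and 11.0.1.1 in the submitters' processing notes. They also hold log10 ratios, which the authors' software made from the processed signals. A deposited matrix of log2 ratios equals processed Cy5 over Cy3 within 0.001 for all 39811 probes with 1 spot. The labels name a miRNeasy kit where the methods name RNeasy.

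Here, median signals were background-corrected by normexp (offset 50, fitted on unflagged spots) and loess-normalized within arrays, control and flagged spots (1.72% to 6.46% per array) were left out, and spots of a probe were averaged (R 4.3.3, limma 3.58.1, data.table, version 1.17.8). Channel values are those after between-array Aquantile scaling. A probe was tested when well above background in the lung channel on at least 4 arrays and with at least 2 values per genotype. Of 41174 probes, 33970 met the first condition and 32645 both, and all 8 probes of the 7 genes did. Genotypes were compared with limma's moderated test with Benjamini-Hochberg adjustment over all probes tested. Tested on simulated data for this comparison, with 32645 probes, it found 85% of 100 probes changed 2-fold and 99% of 100 changed 4-fold. The changed probes were drawn at random from all tested. Their noise was drawn independently, without shared slide or scan day effects. Both sets of changed probes entered the same adjustment, which eases the cutoff for each. The shares may therefore be too high for the real arrays, where Scgb3a2 with a difference of 0.88 was not called. The 8 probes of the 7 genes had an SD larger than that of 90.7% to 99.8% of probes, so these shares do not hold for them.

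The 7 genes and all lists were chosen with earlier results of these data known. Named are all probes of the 7 genes, the 3 genes with the highest Pearson r to each of the 4 lowest, and per list the 3 lowest and 2 highest genes among those well above background in the pool on all arrays, plus any past the genotype test. Saa1, Saa2, Chi3l1, Stat6, Il4, Il13, Col3a1, Ddah1, Mt1 and the marker genes were named after their values were seen. Lists take the brightest probe of a gene. Besides the 7 gene lists, 16 marker lists were averaged per array. Those for mast cells and basophils, ciliated, type I, fibroblast, endothelial, T, B and red cells and adipocytes had means over the arrays of 0.14, 0.30, 0.07, -0.076, 0.39, -0.078, -0.086, 0.38 and 0.35, and club and type II cells 0.88 and 0.44. Symbols came from the matrix (33870 probes) and RefSeq (933), and 6371 probes had none. In total 24 alternatives were run. Same-numbered mice deviated together with r of 0.32, 0.25, -0.079 and -0.21, so the numbers were not taken as pairs. Slide mates gave 0.32, 0.25, 0.30 and 0.068, and the slide was run as a block. Motifs and figures used Python 3.11.15, pandas 2.3.3 and matplotlib 3.10.9.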

Additional observations from a re-analysis of the deposited data

How the results depend on the processing

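The count of probes with an adjusted p under 0.05 was 0 under all 24 alternatives. The count at an unadjusted p under 0.05, 682 as reported, was 389 with normexp fitted on all spots, 1241 with the deposited matrix, 1206 with array weights, 297 with the lung channel alone and 1213 with slides as blocks, and 485 to 1174 without each mouse in turn (1174 when wild-type replicate 4 was left out, 1073 for transgenic replicate 1 and 1035 for transgenic replicate 4). Lung over pool of the 8 probes moved by more than its SD only for Arg1, to -3.72 with an offset of 0, -1.68 with normexp fitted on all spots, and -4.41 with both the processed signals and the deposited matrix. Arg1 is the gene whose lung signal was closest to background, and the cause was not tested.

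All genotype differences of the 8 probes kept an adjusted p over 0.05, but several changed sign. With normexp fitted on all spots the second Retnla probe had -0.021 and Saa3 -0.17. With array weights Saa3 had -0.28, Chi3l4 0.21 and Ear11 0.17. Arg1 had -0.18 with the processed signals, -0.18 with the matrix and -0.027 with the lung channel alone, and Chi3l3 had -0.021 with median centring. Without each mouse in turn the range was -0.088 to 0.39 for Spp1, -0.12 to 0.39 and -0.19 to 0.48 for the Retnla probes, -0.54 to 0.59 for Saa3, -0.13 to 0.28 for Arg1, -0.14 to 0.20 for Chi3l3, -0.64 to -0.0084 for Chi3l4 and -0.25 to 0.16 for Ear11. With the replicate number as a block, Chi3l4 moved from -0.24 to -0.0084 and Ear11 from -0.034 to -0.17, both of which lack arrays, the other 6 probes kept their estimates (Spp1 0.19, Saa3 0.18), 885 probes had an unadjusted p under 0.05 and 0 an adjusted one, and no call changed. The slide as block gave the same estimates for all 8 probes. Among the pairs, subtracting scan day means turned Spp1 and Arg1 to -0.10, Retnla and Chi3l3 to -0.022, Arg1 and Chi3l3 to -0.16 and Arg1 and Ear11 to 0.089. The matrix turned Arg1 and Chi3l3 to -0.24 and moved Arg1 and Ear11 from -0.00043 to -0.58, and subtracting genotype means turned Arg1 and Ear11 to 0.0018. All list medians stayed below 0, but 10 recomputed values moved and 67 did not. The family list went from -0.27 to -0.095 with every probe, -0.45 with processed signals and -0.42 with median centring, arginine metabolism from -0.22 to -0.31 with either, the type 2 axis from -0.17 to -0.35 with either, osteopontin receptors from -0.071 to -0.24 with median centring, and injury and matrix genes from -0.75 and -0.80 to -1.06 and -1.10 with processed signals.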
